A study of Mus musculus with 2 samples.

Results

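Ephrins, semaphorins, slits, netrins and the receptors that bind them were compared between the mouse cell lines GC-1spg and GC-2spd (ts). The set was a list of 56 symbols, 29 ligands and 27 receptors, taken from these families with earlier results of these data known. Of these, 53 were among the 14450 genes with at least 1 unambiguous sense tag in the series. The list does not hold every gene of the families, and of 23 further family or partner genes only 12 had such a tag. Shares below therefore hold for this list and not for whole families. Transcripts were counted by digital gene expression (DGE) tag profiling. *Nla*III cuts cDNA at CATG, and the CATG with the 17 bases that follow it is sequenced as a tag of 21 bases.

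GC-1spg was derived from type B spermatogonia of a mouse 10 days old by transformation with pSV3-neo, a plasmid that carries the SV40 early region, and its label places it past the type B spermatogonium and short of the primary spermatocyte. For GC-2spd (ts) the donor was an adult of 6 weeks whose spermatocytes received the large T antigen of SV40, and the label describes cells stopped before meiosis that can mature no further. Both were thus SV40-transformed lines, and both grew in DMEM with FBS at 10% and with sodium bicarbonate at 1.5 g/L. There was 1 library per line, so no value has a replicate check, each test compares the 2 libraries and not the conditions, and a difference between lines cannot be told apart from one between libraries. Clean tags numbered 5072149 for GC-1spg and 4726808 for GC-2spd (ts), so 1 copy was worth 0.197 and 0.212 TPM, the share of all clean tags scaled to 1000000. Where values stand in pairs below, GC-1spg comes first and GC-2spd (ts) second, and a log2 ratio is that of TPM, GC-2spd (ts) over GC-1spg. All intervals below are 95% intervals that cover counting error only, and PCR copies are not independent molecules. In bulk RNA of this kind, fewer cells that express a gene and less RNA per cell cannot be told apart. Of 12 markers of male germ cells, such as *Ddx4* and *Sycp3*, 1 was listed (*Spo11*, 2 and 0 tags), while 6 of 7 fibroblast markers were listed. By the call rule given below, 3 of the fibroblast markers were higher in GC-2spd (ts) (*Vim* with 984 and 2897 tags, *Col3a1* with 50 and 120, *Pdgfrb* with 0 and 84) and 1 was lower (*Col1a1* with 10465 and 2425). Of 6 Sertoli cell markers, *Wt1* was lower (620 and 0), *Gata4* was higher (29 and 138) and *Sox9* was not called (29 and 46). *Amh* had 5 and 0 tags and was not called, and *Fshr* and *Cldn11* had no listed tag. Of the myoid markers, *Acta2* was higher (50 and 555), and *Des* (11 and 4) and *Myh11* (0 and 2) were not called. Listed were also 2 of 4 Leydig cell, 1 of 5 endothelial and 3 of 5 neuronal markers. Of these only the neuronal *Tubb3* was called (8 and 33, higher). The others were near the floor, with *Cyp11a1* at 2 and 0, *Star* at 2 and 5, *Kdr* at 2 and 4, and *Syp* and *Elavl3* each at 0 and 2. The called markers moved with the line, and their part in the results was not tested.

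Guidance cues were named for steering axons, but the same molecules set the position, adhesion and movement of many cells, germ cells and gonadal cells among them. Ephrins are held on the membrane and bind Eph receptor tyrosine kinases on a neighbouring cell, with signals into both cells. Secreted class 3 semaphorins bind neuropilins that act with plexins, most membrane semaphorins bind plexins directly, slits bind Robo receptors, and netrins bind Dcc, neogenin and the Unc5 receptors. Many of these receptors act on the actin cytoskeleton.

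A gene was called when the Audic-Claverie test on its 2 counts gave a false discovery rate of at most 0.001 over all 14450 genes and its TPM differed at least 2-fold. Of the 53 guidance genes with a listed tag, 20 were called: 6 (11.3%) were higher and 14 (26.4%) lower, always meaning the GC-2spd (ts) level relative to that of GC-1spg. Over all genes tested, 11.7% were called higher and 7.84% lower. Among the 41 guidance genes with at least 20 tags over both libraries the shares were 14.6% higher and 34.1% lower, against 15.8% and 10.2% of all genes with at least 20 tags. The median log2 ratio, with 0.5 tags added to each count, was -0.62 over the 53 listed guidance genes and 0.13 over all genes tested. It became 0 over the guidance genes once each gene unlisted in 1 library was set to the bound that the tags allow. A bound under 1-fold was entered as 0 there, and the median over all genes was not computed in that way. Among genes with at least 20 tags, with 0.5 tags added, the medians were -0.63 for guidance genes and 0.19 over all genes. The call rule assumes no spread between cultures. With an assumed biological coefficient of variation (BCV) of 0.2 in edgeR's exact test, 1 of the higher calls (*Sema3a*) and 11 of the lower calls were kept. The shares of all genes called at that setting were not computed, so whether these losses are particular to guidance genes was not tested.

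The higher genes were *Sema3a*, *Sema5a*, *Ntn4*, *Efna1*, *Plxna1* and *Nrp2*, so 4 ligands and 2 receptors. The tag with the most copies of each is given here because it shows where on the transcript the gene was counted. Tags read 5′ to 3′ on the gene's own strand, positions are on GRCm38 by a match of the tag to GENCODE M21 transcripts, and capitals mark the *Nla*III site.
*Sema3a* (chr5:13600794-13600814, plus strand, 3′ UTR): CATGttctaacaacaaaatga
*Sema5a* (chr15:32695910-32695930, plus strand, 3′ UTR): CATGgaaccaattatggaagt
*Ntn4* (chr10:93747175-93747195, plus strand, 3′ UTR): CATGtatgtaataaaggcaga
*Efna1* (chr3:89271823-89271843, minus strand, 3′ UTR): CATGtacagtgtctgtatata
*Plxna1* (chr6:89316548-89316568, minus strand, 3′ UTR): CATGattagctgtcctttaat
*Nrp2* (chr1:62818478-62818498, plus strand, 3′ UTR): CATGaatgacaagaaaacaag

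Of the 14 lower genes, 10 had at least 50 tags, and their main tags are set out in the same way to show where each was read.
*Sema3c* (chr5:17730199-17730219, plus strand, 3′ UTR): CATGagaatttaattagatgt
*Sema6d* (chr2:124667737-124667757, plus strand, 3′ UTR): CATGtaaagtcaaaataaaat
*Slit3* (chr11:35708210-35708230, plus strand, 3′ UTR): CATGgaacctctttgagattc
*Epha4* (chr1:77367301-77367321, minus strand, 3′ UTR): CATGaactttaggtacacata
*Plxna4* (chr6:32144776-32144796, minus strand, 3′ UTR): CATGaatgggtgaagaagaag
*Plxnb1* (chr9:109119883-109119903, plus strand, 3′ UTR): CATGaaaataaaaatgttacc
*Efna5* (chr17:62604413-62604433, minus strand, 3′ UTR): CATGaagcagggaataaagat
*Sema4c* (chr1:36548774-36548794, minus strand, 3′ UTR): CATGctatggatactggccta
*Sema3f* (chr9:107681717-107681737, minus strand, 3′ UTR): CATGgcttaaaagaacccccc
*Ephb3* (chr16:21223226-21223246, plus strand, 3′ UTR): CATGagtgtgtacaagcttgg

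The other 4 lower genes were *Epha7*, *Sema3b*, *Sema4a* and *Plxnb3*. Among the 41 guidance genes with at least 20 tags, the main tag lay at the first CATG site from the 3′ end of a transcript in 35 and in a 3′ UTR in 39, and it carried a median of 86.1% of the copies of its gene. Because 1 tag is taken per transcript, TPM does not scale with transcript length, and levels of different genes are compared on that scale below.

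The order of levels changed at the top. In GC-1spg, *Sema3c* was first at 277 TPM, followed by *Plxnb2* at 178, *Efnb2* at 149, *Unc5b* at 95.4 and *Epha2* at 72.2. The intervals of these 5 did not overlap, down to *Unc5b* (87.1 to 104) and *Epha2* (65.0 to 79.9). In GC-2spd (ts), *Nrp2* was first at 111 TPM, followed by *Efnb2* at 95.8, *Plxnb2* at 92.0, *Sema3a* at 67.7, *Plxna1* at 57.8 and *Unc5b* at 51.4. Here the intervals of *Nrp2* (102 to 121), *Efnb2* (87.2 to 105) and *Plxnb2* (83.6 to 101) overlapped from one to the next, and so did those of *Sema3a*, *Plxna1* and *Unc5b*. *Sema3a* moved from place 31 to place 4, and *Sema3c* from place 1 to place 26.

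**Figure D1:**
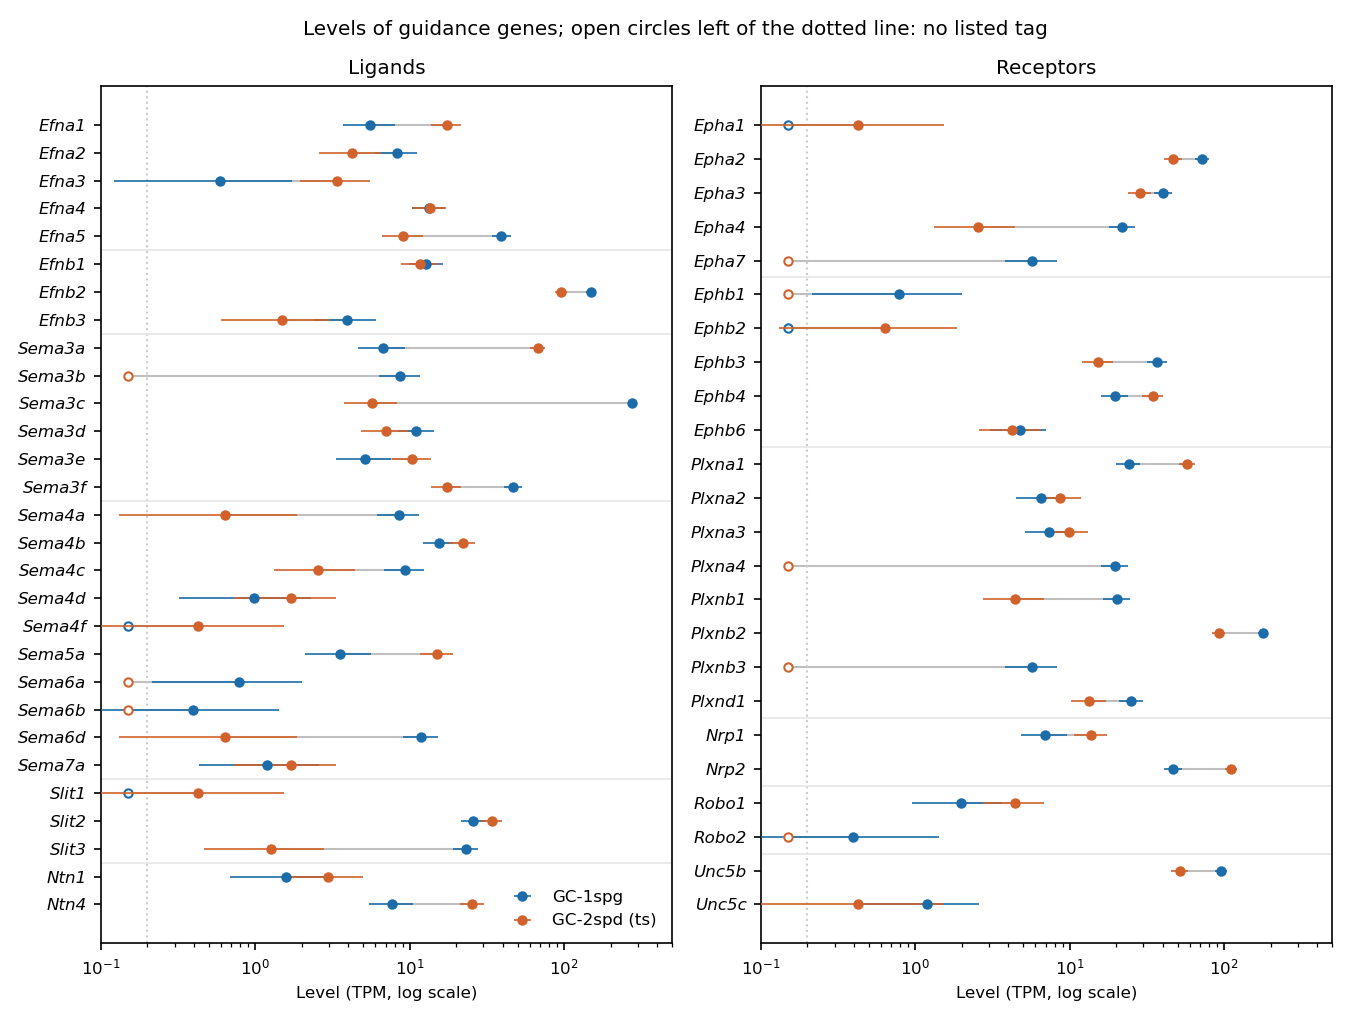
Level of each of the 53 listed guidance genes in TPM on a log axis, ligands on the left and receptors on the right, with blue for GC-1spg, orange for GC-2spd (ts) and exact Poisson 95% intervals as bars. Open circles mark genes with no listed tag in that library. The widest gap between filled points is that of *Sema3c*, at 277 and 5.71 TPM.

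Of the guidance genes listed in both libraries, semaphorin ligands had the largest called log2 ratio in each direction. *Sema3c*, a secreted semaphorin needed for the cardiac outflow tract, had 1403 and 27 tags and was 48.4-fold lower (log2 ratio -5.60, interval -6.20 to -5.05). *Sema3a*, which collapses growth cones through neuropilin and plexin-A receptors, had 34 and 320 tags and was 10.1-fold higher (3.34, 2.82 to 3.89). The leading gene of the class thus differed between the libraries. *Sema3c* supplied 77.9% (76.0 to 79.8) of class 3 semaphorin tags in the first library and 5.28% (3.51 to 7.59) in the second, while *Sema3a* went from 1.89% (1.31 to 2.63) to 62.6% (58.3 to 66.8).

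The other class 3 members were split between lower and uncalled. *Sema3f*, a repellent that acts through neuropilin-2, had 237 and 82 tags (-1.43, -1.81 to -1.06) and was called lower. *Sema3b*, which shares that receptor, had 44 and 0 listed tags and was at least 5.29-fold lower. The files leave out tags of a single copy, and that bound grants *Sema3b* 1 such copy per tag. *Sema3e*, a ligand of plexin-D1, had 26 and 49 tags (1.02, 0.30 to 1.76), and *Sema3d* had 56 and 33 (-0.66, -1.33 to -0.015), and neither was called.

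The *Sema3d* count rests partly on a tag with 1 mismatch, a pair singled out after its values were seen. The reference tag and the listed tag at this site (chr5:12588662-12588682, plus strand, 3′ UTR) differ by C7A, with positions counted from 1 at the C of CATG and capitals again marking the cut site.
Reference tag: CATGtacacaataaatctcac
Listed tag: CATGtaaacaataaatctcac
The reference tag had 49 and 11 copies, and the listed tag had 0 and 15. The listed tag was thus 0% (0 to 7.25) and 57.7% (36.9 to 76.6) of the copies of the pair, and it was seen in GC-2spd (ts) alone. With exact matches alone, *Sema3d* was lower by a log2 ratio of -1.54 and was called.

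Of 10 membrane semaphorins, 3 were called lower and 1 higher. *Sema6d*, a ligand of plexin-A receptors, had 60 and 3 tags (-4.22, -6.54 to -2.60), *Sema4a* had 43 and 3 (-3.74, -6.07 to -2.10), and *Sema4c*, a ligand of plexin-B2, had 47 and 12 (-1.87, -2.92 to -0.93). *Sema5a*, which carries thrombospondin repeats, had 18 and 71 tags (2.08, 1.32 to 2.92) and was the higher one. *Sema4b* had 78 and 104 tags (0.52, 0.08 to 0.96) and was not called. It supplied 29.7% and 49.3% of the tags of this class. *Sema4d*, *Sema4f*, *Sema6a*, *Sema6b* and *Sema7a* had 2 to 14 tags over both libraries, and none was called.

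Among semaphorin receptors, 1 neuropilin and 1 plexin were called higher and 3 plexins lower. *Nrp2*, a coreceptor for class 3 semaphorins and for VEGF, had 237 and 526 tags (1.25, 1.03 to 1.48). *Nrp1*, the main coreceptor of Sema3a, had 35 and 65 (0.99, 0.38 to 1.63), which did not pass the call rule. *Nrp2* made up 87.1% (82.6 to 90.9) and 89.0% (86.2 to 91.4) of neuropilin tags, shares whose intervals overlap. Its tags came mainly from 3 CATG sites, each the first site of a transcript with its own 3′ end. The distal site printed above had 77 and 215 copies, the site at chr1:62798730-62798750 had 102 and 169, and the exact tag at chr1:62796961-62796981 had 13 and 79, so each of these was seen more in GC-2spd (ts).

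Plexins, the signalling receptors for semaphorins, went both ways. *Plxna1* had 122 and 273 tags (1.26, 0.95 to 1.58) and was the called member that was higher. *Plxna4*, a partner of Nrp1 in the response to Sema3a, had 99 and 0 listed tags and was at least 7.79-fold lower. *Plxnb1*, the receptor of Sema4d, had 102 and 21 (-2.18, -2.93 to -1.49), and *Plxnb3*, a receptor of Sema5a, had 29 and 0 listed tags and was at least 3.49-fold lower. *Plxna1* had the most tags of the A-type plexins in both libraries, and its share of all plexin tags went from 8.41% (7.04 to 9.96) to 31.0% (28.0 to 34.2).

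The most abundant plexin was close to the fold limit. *Plxnb2*, a receptor of Sema4c, had 901 and 435 tags (-0.95, -1.12 to -0.78), and *Plxnd1*, the receptor of Sema3e, had 127 and 63 (-0.91, -1.37 to -0.46). Neither reached 2-fold by TPM, and both were called lower under TMM scaling (-1.12 and -1.08), which shifts every log2 ratio by -0.17. *Plxna2* with 33 and 41 tags (0.41, -0.28 to 1.12) and *Plxna3* with 37 and 47 (0.45, -0.21 to 1.11) had intervals that included 0. At the site nearest the 3′ end alone *Plxna2* had 10 and 23 copies (1.30) and was not called. *Plxnc1* had no listed tag in either library.

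**Figure D2:**
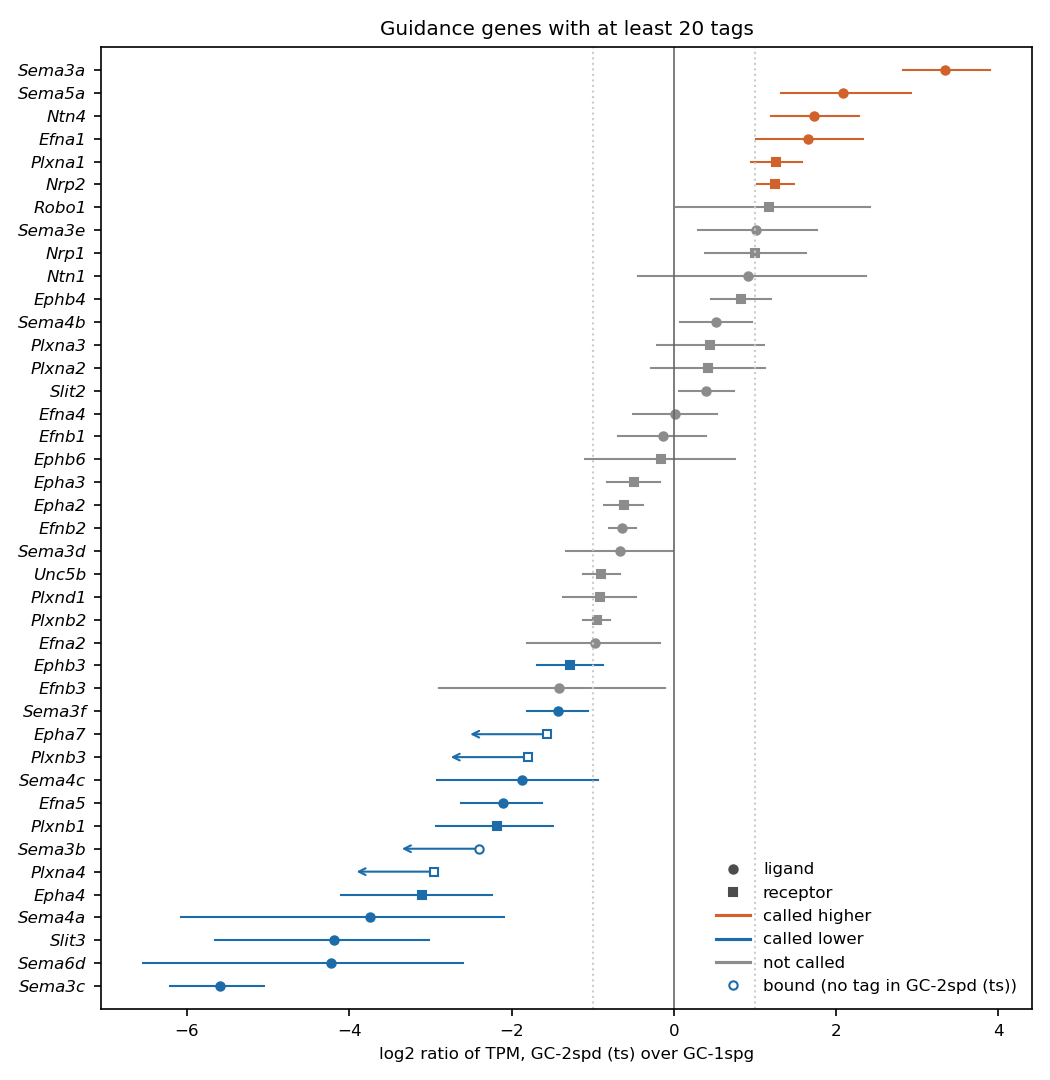
Log2 ratio of TPM, GC-2spd (ts) over GC-1spg, for the 41 guidance genes with at least 20 tags, with circles for ligands, squares for receptors and exact conditional binomial 95% intervals as lines. Orange and blue mark genes called higher and lower, open symbols with arrows are bounds for genes unlisted in GC-2spd (ts), and dotted lines mark 2-fold. The 6 higher genes run from *Nrp2* at 1.25 to *Sema3a* at 3.34, and the lower genes reach -5.60 at *Sema3c*.

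In the ephrin family, 1 of 8 ligands was higher, 1 was lower, and 3 of 11 receptors were lower. *Efna1*, a ligand of EphA2 anchored by glycosylphosphatidylinositol, had 28 and 82 tags (1.65, 1.02 to 2.33). *Efna5*, a ligand of several EphA receptors, had 199 and 43 (-2.11, -2.62 to -1.63). As a result the leading A-type ephrin differed between the libraries. *Efna5* was 58.5% (53.1 to 63.8) and 19.1% (14.2 to 24.9) of A-type ephrin tags, and *Efna1* was 8.24% (5.54 to 11.7) and 36.4% (30.2 to 43.1). In GC-2spd (ts) the interval of *Efna1* overlapped that of *Efna4*, at 28.4% (22.6 to 34.8).

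The other A-type ephrins did not pass the test. *Efna2* had 42 and 20 tags (-0.97, -1.82 to -0.17). That value rests on CATG sites away from the 3′ end, since the site nearest the 3′ end had 2 copies in each library. *Efna4* had 68 and 64 tags (0.01, -0.50 to 0.53), and the sign of this small ratio turned under TMM scaling (-0.16). At the site nearest the 3′ end alone it had 11 and 24 copies (1.23) and was not called either. *Efna3* had 19 tags in all and was not called.

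Ephrin-B ligands, which span the membrane and signal backward into their own cell, were led by *Efnb2* in both libraries. *Efnb2*, best known as the partner of EphB4 in blood vessels, had 754 and 453 tags (-0.63, -0.80 to -0.46). Its interval excluded 0, but the difference was under 2-fold and was not called. It supplied 89.9% (87.6 to 91.8) and 88.0% (84.8 to 90.6) of ephrin-B tags. *Efnb1* had 65 and 55 tags (-0.14, -0.68 to 0.40), and *Efnb3* had 20 and 7 (-1.41, -2.90 to -0.11).

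EphA receptors were led by *Epha2*, a receptor common in epithelia and in tumour lines, with 366 and 222 tags (-0.62, -0.87 to -0.38). *Epha4*, which binds ephrins of both types, had 111 and 12 tags (-3.11, -4.10 to -2.25) and was called lower. *Epha7* had 29 and 0 listed tags and was at least 2.95-fold lower. Only 8 of these 29 came from the site nearest the 3′ end of a transcript, and on those alone the call was lost. *Epha5* had no listed tag in either library.

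The count of *Epha3*, another EphA receptor, came mainly from tags with a run of A at the end. It was given 204 and 135 tags (-0.49, -0.82 to -0.17), but 193 and 127 of them came from 4 tags that end in 8 or more A. Without these tags 11 and 8 remained, from 2 tags that each differ by 1 mismatch from the main A-ending tag. All counted sense tags of *Epha3* thus lay at a single A-rich site, and no count independent of it was left. Another 1125 and 450 copies matched *Epha3* and other genes equally well and were left out, and where sense matches were preferred over antisense ones the gene had 933 and 425 tags and was called lower (-1.03).

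EphB receptors showed an exchange of the leading member. *Ephb3* had 187 and 72 tags (-1.28, -1.69 to -0.88) and was called lower, a call that was lost when its 17 and 27 antisense tags were added (-0.94). Of those antisense tags, 5 and 25 copies came from tags that end in 8 or more A, and 12 and 2 remained without them. *Ephb4*, the vascular partner of ephrin-B2, had 99 and 163 (0.82, 0.45 to 1.20) and was not called. *Ephb3* was 59.6% (53.9 to 65.0) and 27.9% (22.5 to 33.8) of EphB tags, and *Ephb4* was 31.5% (26.4 to 37.0) and 63.2% (57.0 to 69.1). *Ephb6*, which lacks kinase activity, had 24 and 20 tags (-0.16, -1.09 to 0.76). *Epha1*, *Ephb1* and *Ephb2* had 2 to 4 tags in 1 library each and none in the other.

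**Figure D3:**
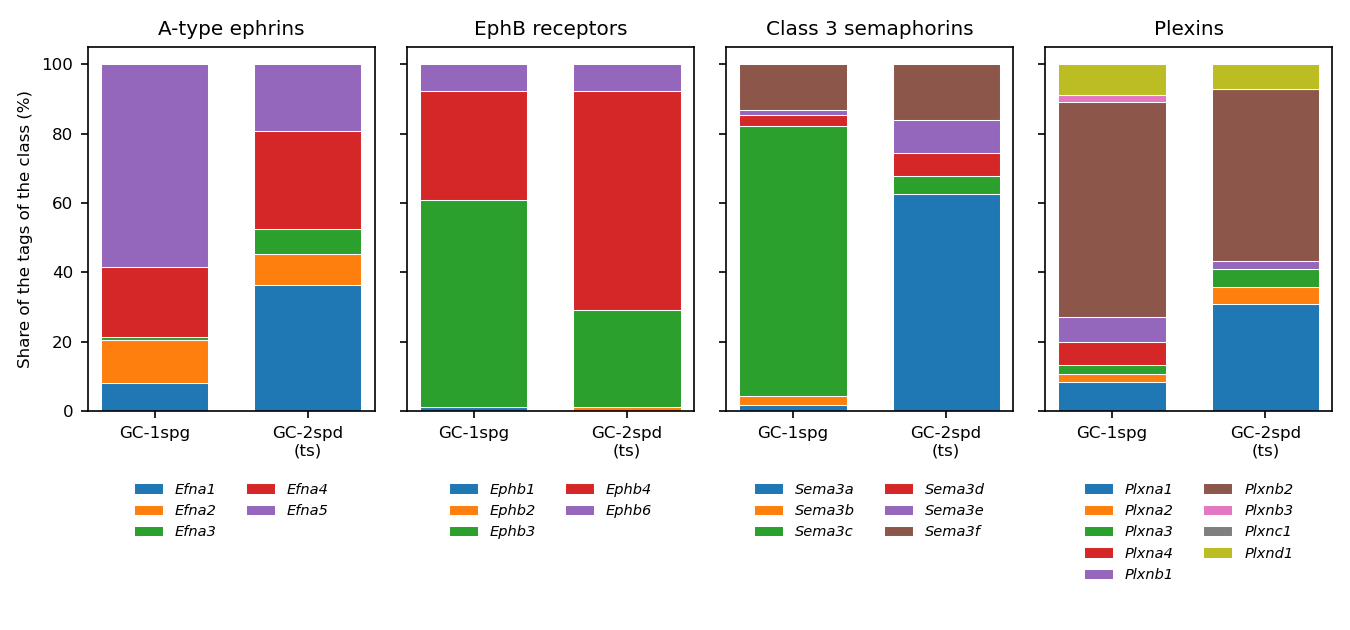
Share of the tags of each class by gene, in percent, for A-type ephrins, EphB receptors, class 3 semaphorins and plexins, with 1 bar per library. The leading gene differs between the bars of the first 3 classes (*Efna5* and *Efna1*, *Ephb3* and *Ephb4*, *Sema3c* and *Sema3a*), while *Plxnb2* leads the plexins in both at 62.1% and 49.4%.

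Slits and netrins were carried by few genes. *Slit2*, a ligand of Robo receptors, had 131 and 161 tags (0.40, 0.06 to 0.74) and was not called, whereas *Slit3* had 117 and 6 (-4.18, -5.66 to -3.02) and was called lower. Slit tags were thus shared between both genes in GC-1spg, where *Slit3* had 47.2% (40.8 to 53.6), and came almost wholly from *Slit2* in GC-2spd (ts), where *Slit3* had 3.55% (1.31 to 7.57). *Slit1* had 2 tags, in GC-2spd (ts). *Robo1* had 10 and 21 tags (1.17, 0.02 to 2.42) and was not called, with a further 57 and 42 copies shared with other genes and left out. *Robo2* had 2 tags, in GC-1spg.

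*Ntn4*, a netrin of basement membranes related to laminin chains, had 39 and 120 tags (1.72, 1.19 to 2.28) and was called higher. *Ntn1*, the classical axon attractant, had 8 and 14 (0.91, -0.44 to 2.37). *Unc5b*, a netrin receptor of vessels that can trigger cell death without its ligand, had 484 and 243 tags (-0.89, -1.12 to -0.67). It was not called by TPM and was called lower under TMM scaling (-1.07). *Unc5c* had 6 and 2 tags. *Dcc*, the attractive netrin receptor, had no listed sense tag in either library, although its transcripts hold 75 CATG sites found in no other gene.

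Ligand and receptor use was then set side by side as summed levels, with no test. All ligands came to 697 and 373 TPM (log2 ratio -0.90, -0.98 to -0.82) and all receptors to 640 and 501 (-0.36, -0.43 to -0.28). Ligands were therefore 52.1% (50.9 to 53.3) and 42.7% (41.2 to 44.3) of guidance tags. That order rested on *Sema3c*: without it the ligand sums were 421 and 368 TPM (-0.19) and the ligand shares 39.7% (38.3 to 41.0) and 42.3% (40.8 to 43.9).

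Ephrins came to 232 and 157 TPM and Eph receptors to 202 and 133, so that ephrins were 53.5% (51.4 to 55.6) and 54.1% (51.4 to 56.7) of their family. Without *Epha3* the Eph receptors came to 162 and 105 TPM. Semaphorins came to 407 and 153 TPM (-1.41, -1.54 to -1.29), and to 130 and 147 (0.18, 0.02 to 0.33) without *Sema3c*. Under TMM scaling the log2 ratio without *Sema3c* was 0.0026. Semaphorins were 54.5% (52.9 to 56.1) and 32.9% (31.0 to 34.9) of the tags of semaphorins and their receptors. Plexins and neuropilins together came to 340 and 311 TPM (-0.13, -0.23 to -0.02), a sum whose sign turned to 0.039 when the site nearest the 3′ end alone was used. Within it plexins came to 286 and 186 TPM and neuropilins to 53.6 and 125 TPM.

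For slits and netrins one side outweighed the other. Slits came to 48.9 and 35.8 TPM against 2.37 and 4.44 TPM of Robo receptors. Slits were thus 95.4% (92.1 to 97.6) and 88.9% (83.6 to 93.0) of this family, shares whose intervals overlap. The Robo sum was 12 and 21 tags and leaves out the 57 and 42 copies that *Robo1* shares with other genes. These shares therefore hold for unambiguous tags alone. Netrins came to 9.27 and 28.3 TPM (1.61, 1.12 to 2.12) against 96.6 and 51.8 TPM of netrin receptors (-0.90, -1.13 to -0.67), and so netrins were 8.75% (6.50 to 11.5) and 35.4% (30.5 to 40.4) of this family. The receptor sum was almost wholly *Unc5b*, at 98.8% and 99.2% of its tags. Neogenin (*Neo1*), a further netrin receptor outside the list of 56 and named here after its values were seen, stood at 55.4 and 107 TPM and was not called, beside 95.4 and 51.4 TPM of *Unc5b*. *Neo1* had 281 and 505 tags (0.95, 0.73 to 1.16), opposite in direction to *Unc5b*. The lower receptor sum and the netrin shares therefore hold for the listed receptors alone and not for netrin receptors with *Neo1* counted.

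**Figure D4:**
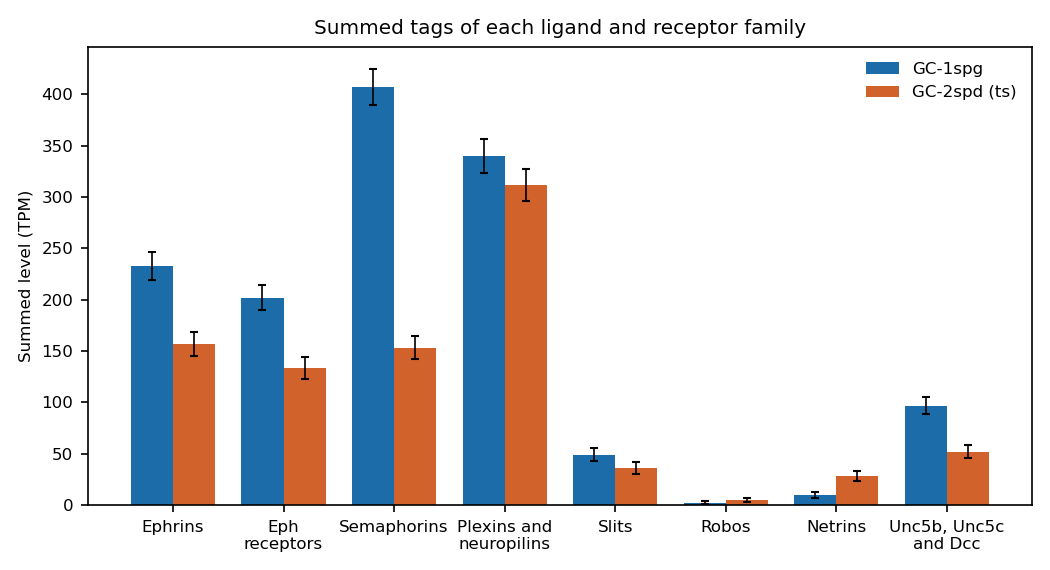
Summed level of each ligand and receptor family in TPM, blue for GC-1spg and orange for GC-2spd (ts), with exact Poisson 95% intervals on the summed counts. Semaphorins show the widest gap (407 and 153 TPM), and netrins and Robos are the families with taller orange bars, the Robos with a ratio interval that includes 0.

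Genes that act with or downstream of these receptors were listed by role, also with earlier results of these data known, and are called effectors here. Proteases that cut ephrins or Robos, and surface partners such as *Itgb1* and *Met*, were among them. Of 73 effectors 69 were listed, with 12 (17.4%) called higher and 8 (11.6%) lower, beside 11.7% and 7.84% of all genes tested. Among those with at least 20 tags the shares were 20% and 13.3%, beside 15.8% and 10.2% of all genes of that depth. Of 23 further genes of these families or their partners, 12 were listed, with 2 (16.7%) called higher and 1 (8.33%) lower. Under TMM scaling the higher calls of both lists together, with 69 and 12 listed genes, went from 14 to 8. The lower calls went from 9 to 11, while calls over all genes went to 8.94% higher and 9.99% lower. Shares of both lists together were not computed, so these counts are not read as an excess over all genes.

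The largest called ratios of both lists together came from genes with different roles. *Srgap3*, a GTPase-activating protein that binds Robo receptors, had 6 and 40 tags (2.84, 1.59 to 4.37). *Dpysl3*, a collapsin response mediator, had 45 and 194 (2.21, 1.74 to 2.71), and *Pak1*, a kinase activated by Rac and Cdc42, had 89 and 274 (1.72, 1.37 to 2.09). On the lower side, *Dpysl5*, another collapsin response mediator, had 156 and 0 listed tags and was at least 13.8-fold lower. *Flrt3*, a membrane ligand of Unc5 receptors, had 66 and 2 (-4.94, -8.02 to -3.03), and *Rac3*, a relative of *Rac1* that acts on actin, had 51 and 7 (-2.76, -4.15 to -1.62). Of the collapsin response mediators, then, *Dpysl3* and *Dpysl5* were called in opposite directions. *Dpysl2* had 82 and 138 tags (0.85, 0.45 to 1.27) and was not called, and *Crmp1* and *Dpysl4* had no listed sense tag.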

How the data were processed

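DGE tags were measured in 1 library per line. The authors removed adaptor, low quality and single-copy tags and deposited, for each remaining tag, a raw copy-number count and a TPM scaled to 1000000 clean tags. Their UniGene reference was not used here, so the mapping was redone: tags were matched to sense and antisense CATG tags of 141767 GENCODE M21 transcripts with at most 1 mismatch, exact matches first, and sense counts of tags whose best matches belonged to 1 gene were summed per symbol. The Audic-Claverie test with Benjamini-Hochberg adjustment ran on all 14450 genes, taking 0.01 TPM where a gene had no tag. Without replicates the quasi-likelihood test of edgeR and DESeq2 could not be fitted. Ratio and share intervals are exact (Clopper-Pearson), and bounds set the tag count against the one-sided 95% Poisson limit for 1 unlisted copy per tag. The test was tried on simulated counts first.

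Members and gene lists were chosen with earlier results of these data known. Members with at least 20 tags are given in full and the others by range or count. Of the other guidance and effector genes the 3 called ones with the largest ratio in each direction and at least 20 tags are named, and main tags are printed for called members with at least 50 tags. Alternatives were exact matching, sense matches preferred, the site nearest the 3′ end, TMM scaling, scaling to unambiguous sense tags, antisense tags added, 0.5 tags added, a binomial test (exact), at least 10 tags, and the exact test of edgeR at BCVs of 0.1, 0.2 and 0.4. Leaving out tags that end in 8 or more A was added after seeing the data. Python 3.11.15, scipy 1.17.1, R 4.3.3 and edgeR 4.0.16 were used.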

Additional observations from a re-analysis of the deposited data

Results flagged for a closer look

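Antisense tags of the guidance genes, which enter the comparisons above through 1 alternative alone, had 864 copies for GC-1spg and 442 for GC-2spd (ts), over 35 of the 56 genes, and were noted because they are a signal outside the sense counts. They came to 12.7% and 10.7% of the sense tags of these genes, against 13.9% and 12.2% over all genes. *Sema3c* had 240 and 13 antisense copies, *Efnb2* 204 and 109, *Efna5* 96 and 26, *Sema4b* 55 and 44, and *Nrp2* 45 and 68. For *Sema3c*, *Efna5* and *Nrp2* the library with more antisense copies was also the one with more sense copies. For *Sema4b* it was not. *Ephb3* had 17 and 27 antisense copies beside 187 and 72 sense tags, but 5 and 25 of these copies came from tags that end in 8 or more A, and 12 and 2 remained without them. For *Sema3c* such tags made up 7 and 11 of the antisense copies, and 233 and 2 remained without them. Over all guidance genes such tags came to 14 and 43 antisense copies. The origin of these tags was not tested.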

How the results depend on the processing

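Of the 20 called guidance genes, all 20 were also called under TMM scaling, 11 were called in every alternative other than an assumed BCV of 0.4, and 2 (*Sema3c* and *Plxna4*) in all 13. The count of higher members fell from 6 to 1 at an assumed BCV of 0.2 and to 0 at 0.4, and that of lower members from 14 to 2 at 0.4. Of other guidance and effector genes, 14 were called higher and 9 lower. Under TMM scaling 8 were called higher, while higher calls over all genes went from 11.7% to 8.94%. At a BCV of 0.2 the counts were 1 higher and 3 lower, and at 0.4 they were 0 and 1. The drops at a BCV of 0.2 and 0.4 follow from the spread that it assumes, and the shares of all genes called there were not computed. Summed log2 ratios under TMM scaling were -0.74 for ephrins, -0.78 for Eph receptors, -1.59 for semaphorins and -0.30 for plexins and neuropilins. With sense matches preferred Eph receptors came to -0.83, through *Epha3*. With the site nearest the 3′ end alone, semaphorins came to -1.54, plexins and neuropilins reversed to 0.039, and *Efna2* reversed to 0.10, while *Efna4* moved from 0.01 to 1.23 and *Plxna2* from 0.41 to 1.30, both uncalled. *Efna4* reversed to -0.16 under TMM scaling and to -0.069 under scaling to unambiguous sense tags. For the reversals the cause was not tested. The 41 guidance genes with at least 20 tags were each followed over the 13 alternatives. *Epha3* had no copy at the site nearest the 3′ end and so gave no value there. Of the values obtained, 495 kept their direction and call, 28 lost the call, 6 gained it and 3 reversed. The binomial test, the filter of at least 10 tags and the BCV settings reuse the same ratio, so no direction could change there. The count of 495 was thus in part fixed in advance. No paired analysis was possible because there was 1 library per line. Depth limits genes under 20 tags, and a gene with no listed tag may still have had single copies.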

Other observations

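Whether the libraries used different tags of the same gene was compared after the data had been seen, with Fisher's exact test (two-sided) on copies of the main tag against the rest, over members with at least 20 tags in each library and more than 1 tag. By tag, 26 members were compared and 1 passed at an adjusted p of at most 0.05, *Sema3d*, whose main tag supplied 87.5% of 56 tags in GC-1spg and 33.3% of 33 in GC-2spd (ts) (Fisher's exact test, adjusted p = 6.4e-06). Because the *Sema3d* result came from the C7A tag at the same site, the comparison was run again by CATG site, with a mismatched tag counted with the exact one. By site 0 of 25 members passed, 8 had an unadjusted p of at most 0.05, and the smallest adjusted p was 0.0896 (Fisher's exact test). The largest site differences among those 8 were in *Plxna2*, with 69.7% and 43.9% of tags at its main site, and *Plxnb1*, with 75.5% and 100%.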
